A study of Rattus norvegicus with 6 samples.

Results

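GC-rich spliced circles are circular RNAs of the rat thalamus whose deposited sequence is shorter than the stretch of genome between their ends, so that an intron was taken out, and whose bases are at least 58% G plus C. By this rule 995 of the 32445 circles listed qualified, which is 3.07% of all circles and 3.14% of the 31675 spliced ones. The rule reads sequence and position only, so no read count was used to choose the members. The other 30680 spliced circles, below 58% G plus C, serve as the comparison.

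The study compared the thalamus of 3 rats given 50 µL of CFA (complete Freund's adjuvant, an inflammatory agent) into both temporomandibular joints with that of 3 rats given saline in the same way. Injections were given 2 times a week, and tissue was taken at 14 days. The labels give no strain, sex or age. The libraries were made from total RNA after purification on poly-T beads, which hold RNA with a stretch of A. The table lists whole-number read counts per circle, between 573696 and 1176178 per library, and 84870 of all 4897592 reads (1.73%) fell on GC-rich spliced circles. Of 35 marker genes of neurons, glia and vessel cells, 1, Map2, could be paired with a circle of the table by sequence, so the tissue label could not be checked against markers. Levels are given as RPM, the reads of a circle per 1000000 circRNA reads of its library, with no term for length. The lowest count above 0 was 2, so a listed 0 may stand for 1 read. In whole tissue, fewer cells of a type and less of an RNA per cell cannot be told apart.

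A circular RNA forms when the splicing machinery joins the end of an exon back to the start of the same or an earlier exon. The resulting back-splice junction marks the circle in sequencing reads, and the closed ring has no free ends and no poly(A) tail, which makes it slow to decay. Neurons hold many circles, most of them built from exons of protein-coding genes. Stretches rich in G and C are typical of exons near the start of a gene and of gene-dense chromosomes with short introns, and they include CpG islands, where the pair C followed by G escapes the loss seen in the rest of the genome.

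The following sequences show what the class looks like and are read 5′ to 3′ on the strand of the circle, as deposited. Positions are those of the deposited sequence file, and no source used here names its genome build. The whole circle novel_circ_0005119, on chromosome 12, 44821090 to 44825909, minus strand, is shown as an abundant member short enough to print, with its 15 CpG pairs in capitals.
novel_circ_0005119: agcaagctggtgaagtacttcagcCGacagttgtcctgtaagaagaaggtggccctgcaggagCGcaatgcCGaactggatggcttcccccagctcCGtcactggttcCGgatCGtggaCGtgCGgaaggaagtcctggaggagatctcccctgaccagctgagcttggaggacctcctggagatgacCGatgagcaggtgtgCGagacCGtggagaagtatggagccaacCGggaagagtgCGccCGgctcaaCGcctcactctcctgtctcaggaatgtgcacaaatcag

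Both circles of a locus on chromosome 20, minus strand, are shown because 1 of them is the sole member called between the treatments. They share the end at 31736111 and their first 129 nt, and capitals mark where they differ.
novel_circ_0022168: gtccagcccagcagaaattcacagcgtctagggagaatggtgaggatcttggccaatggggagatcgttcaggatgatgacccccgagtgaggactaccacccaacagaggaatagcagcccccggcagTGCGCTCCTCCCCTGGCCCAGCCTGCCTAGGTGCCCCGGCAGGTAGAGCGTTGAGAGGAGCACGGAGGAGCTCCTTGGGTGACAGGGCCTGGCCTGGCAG
novel_circ_0022169: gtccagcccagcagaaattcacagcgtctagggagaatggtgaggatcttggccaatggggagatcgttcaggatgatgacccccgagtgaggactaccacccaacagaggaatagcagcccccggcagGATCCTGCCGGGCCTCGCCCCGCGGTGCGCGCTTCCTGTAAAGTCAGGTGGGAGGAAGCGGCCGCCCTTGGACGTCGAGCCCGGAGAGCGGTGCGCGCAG

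The junctions of 2 further members are shown, with capitals after the back-splice. The first is of the circle that varied most between rats among the 10 most abundant members, and the second is of the most GC-rich circle with reads in all 6 libraries.
novel_circ_0021442: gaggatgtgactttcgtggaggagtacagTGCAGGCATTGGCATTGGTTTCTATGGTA
novel_circ_0009685: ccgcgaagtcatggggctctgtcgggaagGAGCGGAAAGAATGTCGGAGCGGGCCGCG

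GC-rich spliced circles came from short stretches of genome. Their median span was 5207 nt (quartiles 2033 and 13590.5), against 11750 nt (5470 and 22985) for the other spliced circles. Spans under 2000 nt were held by 247 of them (24.8%) and by 7.52% of the others, and spans of at least 50000 nt by 34 (3.42%) and 5.65%. The circles themselves were of similar length, with a median of 373 nt against 384 nt. The span therefore differed in the part removed by splicing. The longest member, novel_circ_0005223, had 2787 nt and 5 reads in 1 CFA library. The widest, novel_circ_0000012 on chromosome 10, spanned 96308 nt and had 12, 6 and 20 reads in CFA rats and 5, 47 and 7 in saline rats. Groups overlapped for this circle.

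The GC content of the members ran from 58% to 70.7% with a median of 59.5%, so most lay close to the threshold, and 22 had 65% or more. The other spliced circles had a median of 47.5%. Since the rule fixes these values they are a description. Novel_circ_0042520, novel_circ_0028393 and novel_circ_0006218 lay just inside at 58%, with mean levels of 7.75, 2.56 and 1.81 RPM. Novel_circ_0031290, novel_circ_0019394 and novel_circ_0045137 lay just outside, the first at 57.99%, with 57.3, 1.07 and 1.42 RPM. Within the members the frequency of CpG relative to that given by their C and G content had a median of 0.463, against 0.386 in the others, so that CpG was short of its chance level in both sets. The extreme member, novel_circ_0013579, with 70.7% G plus C, had 62 CpG pairs in 484 nt, a relative frequency of 1.03, and 7 reads, all in saline replicate 2. Novel_circ_0009685, with 69.7%, had 23, 28 and 22 reads in CFA rats and 10, 5 and 22 in saline rats, or 34.1 ± 9.34 against 15.1 ± 9.84 RPM (SD, n = 3 each). The lowest CFA level of this circle, 24.4 RPM, lay just above the highest saline level, 23.5 RPM, and it was not called (log2 fold change 1.15 ± 0.69, SE, edgeR adjusted p = 0.912).

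**Figure D1:**
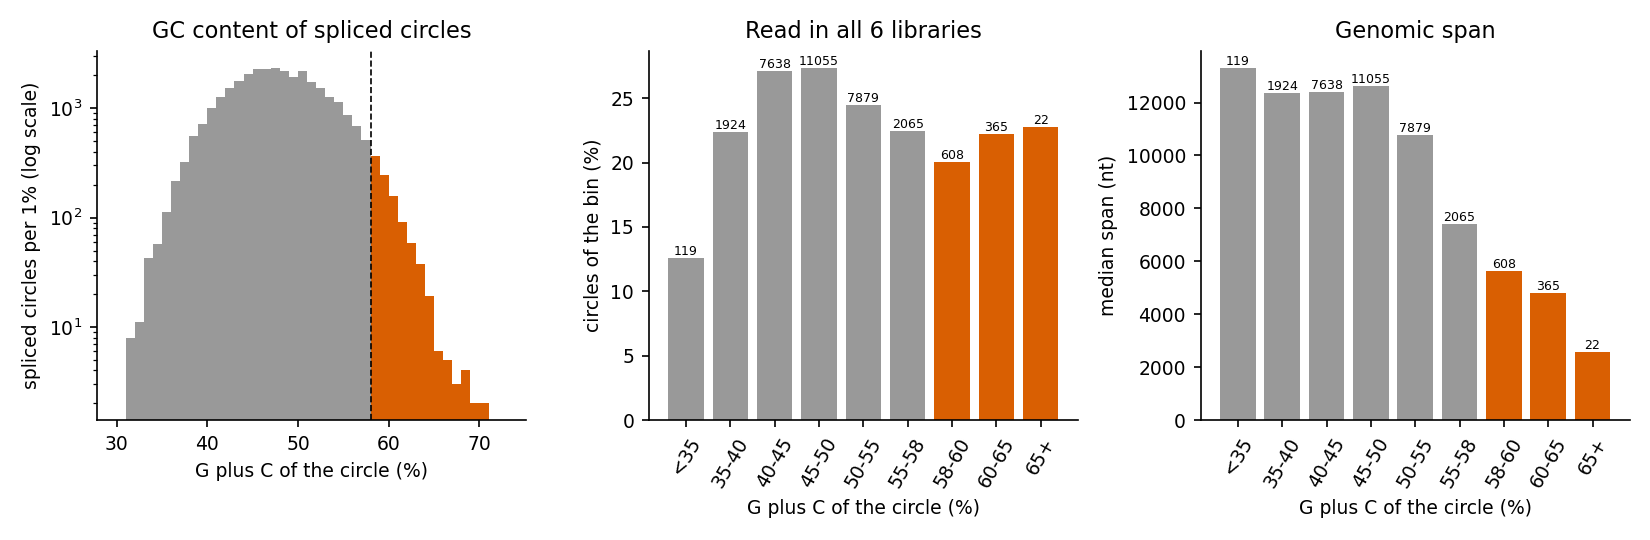
Left, number of spliced circles per 1% of GC content (log scale), with the threshold dashed and GC-rich circles in orange. Middle and right, percent of circles with reads in all 6 libraries and median genomic span in nt per GC bin, with the number of circles above each bar. Detection in all 6 libraries peaks at 27.3% between 45% and 50% GC, and the median span falls from 12613 nt there to 5642 nt between 58% and 60%.

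The members were spread unevenly over the chromosomes. Chromosome 12 held 97 of them, which was 12.005% of its 808 spliced circles, and 9.75% of all members against 2.55% of all spliced circles. They came from 61 loci, a locus being a run of overlapping circles of 1 strand, and held 12.9% of the reads on members. Chromosome 19 followed with 48 members (6.22% of its spliced circles), then chromosome 10 with 91 (4.66%). Chromosome 1 had the most in number, 131 (4.25%), and 18.6% of the member reads. At the low end were chromosome 2 with 30 (1.19%), the X with 3 of 769 (0.390%) and the Y with 0 of 29. The spliced circles of chromosome 12 had a median GC content of 52.3% and those of the X 44.5%, so these chromosomes also stood apart in the composition of all their spliced circles. The locus with the most members, on the plus strand of chromosome 12, had 9 among its 11 spliced circles. These 9 reached from 36897827 to 36952448 and held 172 RPM in all.

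**Figure D2:**
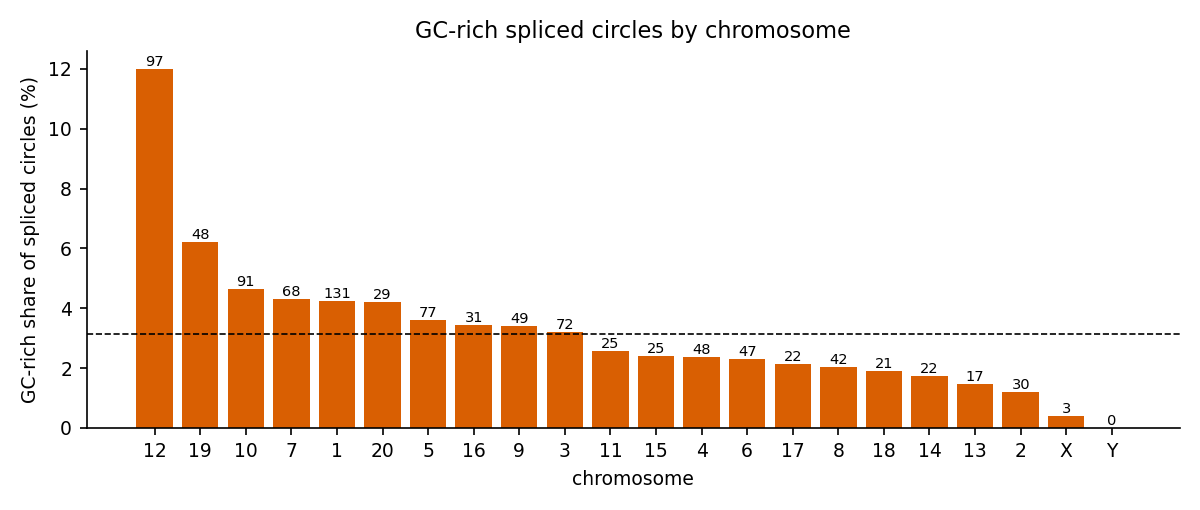
Percent of the spliced circles of each chromosome that are GC-rich, with the number of GC-rich circles above each bar and the value over all chromosomes, 3.14%, dashed. Chromosome 12 stands at 12.005% and the X at 0.390%.

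Members lay in 709 loci. Of these, 539 held 1 member, and the other 170 held 456 members (45.8%) between them. In 424 loci every spliced circle was GC-rich, and in 342 of these it was the sole spliced circle. The other 285 loci mixed both classes and held 446 members (44.8%). In these mixed loci members made up 26.2% of the circles, pooled over loci. Counted by locus, they took a median of 23.3% of the reads and supplied the most abundant circle in 97 (34.0%). The pooled share and the values by locus are unlike measures. The mean level of members was above that of the other spliced circles in 113 of the 285.

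GC-rich spliced circles were less abundant than other spliced circles in each of the 6 libraries. The mean level over all listed circles was 17.5 RPM against 29.8 RPM, and the median 3.20 against 4.29 RPM. Per library, the ratio of the mean levels was 0.620, 0.540 and 0.590 after CFA and 0.643, 0.626 and 0.494 after saline. The log2 ratio was -0.78 ± 0.15 (SD, n = 6; exact two-sided sign-flip permutation test over libraries, p = 0.03125, the smallest 6 libraries can give), below 0 in 6 of 6. The libraries share the list of circles, so this test covers the spread between rats and not the choice of circles. Much of the gap came from the most abundant circles: 0 members and 111 other circles exceeded 1000 RPM, and with circles below 1000 RPM the log2 ratio was -0.36. It was -0.24 for the median over circles with reads and -0.29 among circles of 300 to 500 nt, with 6 of 6 libraries below 0 in each case. Levels of at least 50 RPM were reached by 69 members (6.93%) and 9.47% of the others.

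The gap was not alike over spans. Among circles spanning under 2000 nt the 247 members had a mean of 19.5 RPM and the others 20.2 RPM, a log2 ratio of -0.05. The ratio was -0.83 between 2000 and 10000 nt, -1.38 between 10000 and 30000 nt, and 0.02 from 30000 nt up, where 88 members had a mean of 37.5 RPM. The median level of those 88, 3.94 RPM, was below the 7.79 RPM of the others, so a few abundant circles set their mean. By GC content, the mean was highest between 45% and 50%, at 33.5 RPM. It was 21.5 RPM between 55% and 58%, 16.7 between 58% and 60%, 18.7 between 60% and 65% and 19.1 from 65% up, so it fell no further within the members.

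Members were also read in fewer libraries. Only 1 library held reads for 354 members (35.6%), against 28.8% of the other spliced circles, and all 6 did for 208 (20.9%) against 25.8%. Those 208 carried 79.7% of the reads on members. This gap too was not alike over spans. Under 2000 nt, 19.8% of members and 20.9% of the others were read in all 6 libraries. The shares were 19.4% and 23.1% between 2000 and 10000 nt, and 21.9% and 25.7% between 10000 and 30000 nt. From 30000 nt up they were 28.4% and 34.4%. The part of the lower levels of members in their detection was not tested. The share of members with reads was 49.6%, 41.8% and 54.3% in the CFA libraries and 41.4%, 64.2% and 51.6% in the saline libraries. For the other spliced circles these shares were 52.8%, 49.0% and 60.2%, and 45.6%, 66.9% and 61.4%. The difference was -5.50 ± 2.74 percentage points (SD, n = 6; exact two-sided sign-flip permutation test, p = 0.03125, the smallest possible), below 0 in 6 of 6 libraries and between -9.88 and -2.64. With circles of 300 to 500 nt it was -3.21 points (below 0 in 5 of 6, p = 0.0625 in the exact permutation test), and without CFA replicate 2 and saline replicate 3 it was -3.99 points.

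CFA and saline rats did not differ detectably in the class as a whole. GC-rich spliced circles took 1.84%, 1.61% and 1.76% of reads in CFA rats and 1.91%, 1.84% and 1.47% after saline. The means were 1.74 ± 0.115% and 1.74 ± 0.236% (SD, n = 3 each; p = 0.9 in a two-sided exact permutation test). As a share of the circles with reads they made up 2.77 ± 0.130% and 2.78 ± 0.179% (n = 3 each; p = 0.9 in the same exact permutation test). With 3 rats against 3 this test cannot go below 0.1. The sign of both differences turned when single libraries were left out, with ranges of -0.139 to 0.0807 and -0.100 to 0.0788 percentage points, CFA minus saline. Without both CFA replicate 2 and saline replicate 3 the differences were -0.0770 and -0.0327 points, where 2 rats against 2 cannot give a p below 0.333 in the exact permutation test. Counting error was small beside the spread between rats: the 95% Wilson interval of the lowest share, saline replicate 3, was 1.45% to 1.495%, and that of the highest, saline replicate 1, 1.87% to 1.95%. Intervals cover counting error only.

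CFA replicate 2 and saline replicate 3 were the lowest library of their group in this share. They were also the lowest in the band just below the threshold, from 55% to 58% GC, with 4.25% and 3.83% of reads against 4.40% to 4.82% in the other libraries. Of the 69 members with at least 50 RPM, saline replicate 3 was the lowest library for 20 (28.99%) and CFA replicate 2 for 16 (23.2%). CFA replicate 3 was lowest for 14 (20.3%) and CFA replicate 1 for 3 (4.35%). Among the 2906 other spliced circles at that level these shares were, in the same order, 18.1%, 19.3%, 14.5% and 14.3%. CFA replicate 2 was the most frequent lowest library of those other circles, so its low values were not particular to members. The G plus C content of the deposited circle sequences, weighted by their read counts, was 47.5% in CFA replicate 2 and 47.4% in saline replicate 3. It was 47.6% to 47.7% in the other 4, and the reads themselves were not measured. The part of this in the results was not tested. Without these 2 libraries 0 members were called (20 at an unadjusted p below 0.05 in edgeR), and the other libraries gave a log2 ratio of mean levels of -0.69 between members and other spliced circles.

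**Figure D3:**
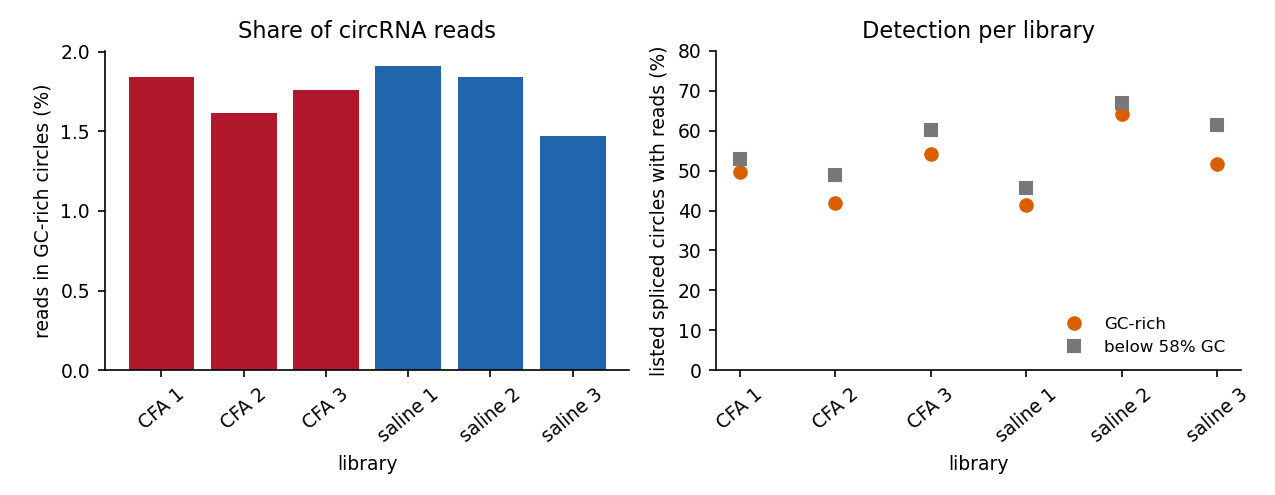
Left, percent of circRNA reads on GC-rich spliced circles per library. Right, percent of listed GC-rich (circles) and other (squares) spliced circles with reads in each library. CFA replicate 2 at 1.61% and saline replicate 3 at 1.47% are lowest, and GC-rich circles lie under the others in all 6 libraries.

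Reads on the class were concentrated in few circles. The leading member took 4.91% of the member reads, the leading 10 took 28.8% and the leading 100 took 70.7%. The 10 most abundant had mean levels between 306 and 877 RPM and ranked between 147 and 539 among all circles, and each was the main product of its locus, with 50.5% to 99.7% of the reads on its spliced circles. Novel_circ_0005381, on chromosome 12 from 8189807 to 8220963, led with 988, 609 and 870 RPM after CFA and 1272, 768 and 752 RPM after saline. It is 473 nt long with 60.5% G plus C. Novel_circ_0024312, on chromosome 2 from 199880862 to 199882743, had 789, 1223 and 664 against 687, 752 and 842 RPM. Both circles overlapped between the groups, with log2 fold changes of -0.18 ± 0.27 and 0.18 ± 0.27 (SE).

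Novel_circ_0021059 on chromosome 1, which spans 91438 nt for a circle of 456 nt, had 638, 430 and 752 RPM after CFA and 694, 639 and 401 RPM after saline. CFA replicate 2 and saline replicate 3 were the low libraries of this circle too, and its log2 fold change was 0.06 with them and 0.09 without them. Novel_circ_0022589 on chromosome 20 had 378, 519 and 500 against 575, 654 and 444 RPM, and its log2 fold change of -0.30 ± 0.30 was the lowest of the 10. Novel_circ_0038141 on chromosome 6 was the steadiest, with a coefficient of variation over the 6 libraries of 10.8%, at 422, 502 and 441 against 401, 460 and 369 RPM. The circle of the fully printed sequence, novel_circ_0005119, had 326, 293 and 379 against 720, 275 and 165 RPM. Its highest and lowest values were both in saline rats, so its group difference was not larger than the spread. Novel_circ_0024028, novel_circ_0039441 and novel_circ_0016935 had means of 372, 359 and 306 RPM and log2 fold changes between -0.26 and 0.06.

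Novel_circ_0021442, a 333 nt circle from 1081 nt of chromosome 1 (73746711 to 73747791, minus strand) whose junction is printed above, varied most among the 10. It had 356, 57 and 547 reads in CFA rats and 471, 422 and 66 in saline rats, which is 542, 87.5 and 605 RPM and 821, 359 and 70.5 RPM. Again CFA replicate 2 and saline replicate 3 were low, and the other 4 libraries lay at 359 RPM or above. Its coefficient of variation was 72.1% and its log2 fold change 0.04 ± 1.19 (SE), or 0.03 without these 2 libraries, so this circle gives no measure of the treatment. The median coefficient of variation of members with at least 50 RPM was 34.6%, against 28.99% for the 2906 other spliced circles with at least 50 RPM. These 2 sets differ in level, as 111 of the others and 0 members exceeded 1000 RPM. The part of level in this gap was not tested.

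**Figure D4:**
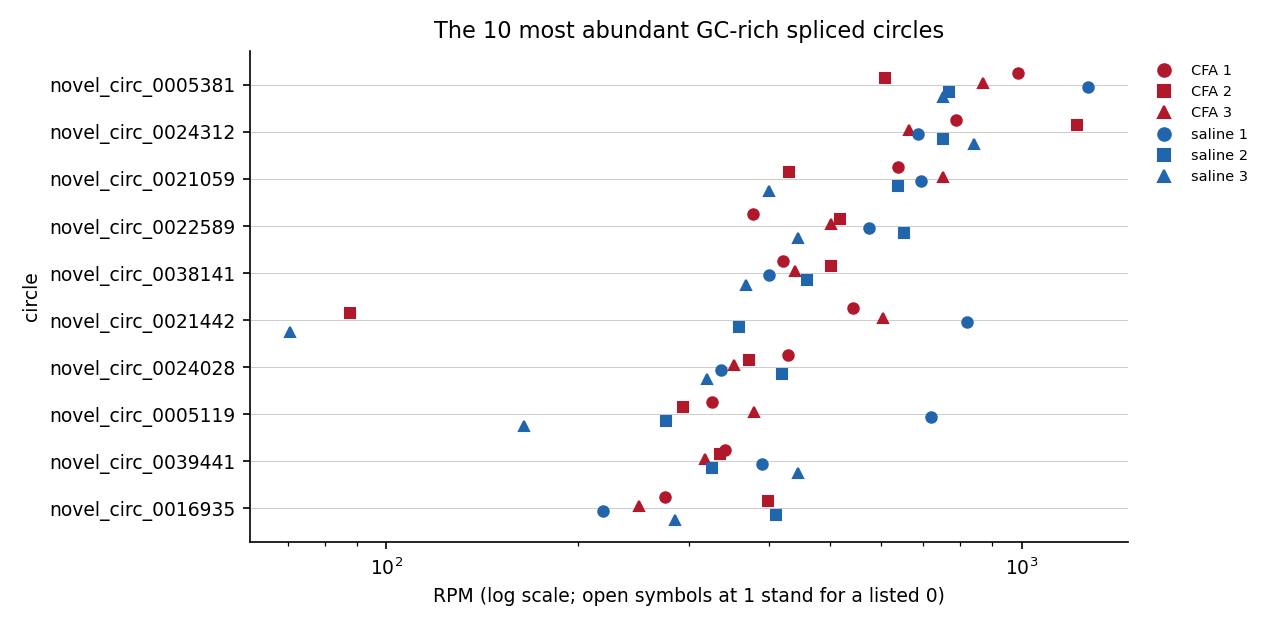
RPM (log scale) of the 10 most abundant GC-rich spliced circles in each library, CFA in red and saline in blue, with a symbol per replicate. The groups overlap for all 10, and novel_circ_0021442 is below 90 RPM in CFA replicate 2 and saline replicate 3 alone.

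Uneven circles had other patterns as well, and these 3 were chosen after their values were seen. Novel_circ_0019286 had 63, 0 and 69 reads in CFA rats and 77, 26 and 24 in saline rats. Novel_circ_0012139 on chromosome 16 had 94, 34 and 0 against 61, 236 and 130 reads. Novel_circ_0015541 on chromosome 18 had 218, 44 and 124 against 39, 144 and 262 reads, so here CFA replicate 1 and saline replicate 3 were the high libraries. Where the median over the other 5 libraries reached 50 RPM, 7 of 405 values of members were listed at 0 (1.73%), against 0.895% of 16977 values of other spliced circles. Of those 7, 3 were in CFA replicate 3.

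Of the 995 members 652 had at least 10 reads over the 6 libraries and entered the test of CFA against saline, and 343 did not. The quasi-likelihood test of edgeR was run on the whole table, and its p-values were adjusted over all circles by Benjamini and Hochberg's method. After adjustment 1 member was called, while 28 of all 22426 circles tested were (0.125%). At an unadjusted p below 0.05, 6 members were higher in CFA (0.920%, background 1.23%) and 12 lower (1.84%, background 1.45%). The groups did not overlap in RPM for 39 members (5.98%, background 6.63%), 20 of them higher and 19 lower. The shares are near the background, so they say nothing particular of GC-rich circles. The median log2 fold change of the 652 was -0.03, against -0.05 for all circles tested. It was 0.01 for the 552 with reads in both groups, while 60 had reads in saline rats alone and 40 in CFA rats alone. Of the 18 members with an unadjusted p below 0.05, 16 had under 50 RPM and 9 had no reads in 1 of the groups.

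Of the 208 members with reads in all 6 libraries, 147 (70.7%) had a log2 fold change within 0.5 of 0 and 61 (29.3%) lay beyond it. Of all circles with reads in all 6 libraries, 70.8% lay within 0.5. Of the 32 that also had at least 100 RPM, 28 (87.5%) did, against 91.6% of all, and their log2 fold changes ran from -0.78 to 0.67. The median SE of the 32 was 0.37. Even the lowest of these changes, that of novel_circ_0000115, was not called (-0.78 ± 0.40, SE, edgeR adjusted p = 0.912). Over the 652 tested the median SE was 1.98, against 1.68 over all circles tested. The edgeR p-values rest on a variance moderated over all circles tested, and not on the spread of each circle between these 6 rats alone.

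The called member was novel_circ_0022168, 1 of the pair printed above, from 31723610 to 31736111 on chromosome 20. It had 0, 0 and 10 reads in CFA rats and 47, 37 and 22 in saline rats, or 3.69 ± 6.39 against 45.6 ± 31.7 RPM (SD, n = 3 each). All 3 saline libraries lay above all 3 CFA libraries, of which 2 were listed at 0. The log2 fold change came to -3.39 ± 0.78 (SE, edgeR adjusted p = 0.0143). The call was lost without CFA replicate 1 (-2.87), CFA replicate 2 (-2.85) or saline replicate 1 (-2.82), and also with at least 30 counts, with filterByExpr, in a fit that is not robust and in DESeq2 (-3.51). Without CFA replicate 3, the CFA library with reads, the fitted value was -8.14 and depends on the prior count.

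Its partner novel_circ_0022169, from 31723858 to the same end, had 0, 0 and 31 reads in CFA rats and 27, 53 and 46 in saline rats. In RPM these were 0, 0 and 34.3 against 47.1, 45.1 and 49.1, so the saline rats were close to each other and CFA replicate 3 lay below them. The log2 fold change of -1.95 ± 0.71 was not called (edgeR adjusted p = 0.912). It was called without CFA replicate 3 (-8.25) and with the replicate block (-3.52). Both circles were at 0 in the same CFA rats, replicates 1 and 2. Summed over these 2 circles, which are all the spliced circles of the locus, the RPM were 0, 0 and 45.4 against 129, 76.5 and 72.6. The means were 15.1 ± 26.2 and 92.7 ± 31.5 RPM (SD, n = 3 each; p = 0.1 in a two-sided exact permutation test, its lower limit; chosen after the call was known).

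No member higher in CFA was called. The smallest p among those read in at least 4 libraries belonged to novel_circ_0002380 on chromosome 10, 85964726 to 85968957, with 15, 58 and 34 reads in CFA rats and 0, 11 and 21 in saline rats. The log2 fold change came to 2.06 ± 0.63 (edgeR adjusted p = 0.473). The lowest CFA value, 22.8 RPM, was barely above the highest saline value, 22.4 RPM, and without saline replicate 3 it was called (3.09). Novel_circ_0028348 on chromosome 3 had 19.8, 36.8 and 49.8 RPM after CFA and 12.2, 6.80 and 10.7 after saline, and novel_circ_0032765 on chromosome 4 had 27.4, 44.5 and 27.7 against 12.2, 21.3 and 0 RPM. In these 2 circles the groups did not overlap either. Novel_circ_0045686 on chromosome 9 was the 1 abundant circle among the 6, with 224, 129 and 397 RPM against 180, 166 and 125 RPM. Its groups overlapped, as did those of novel_circ_0040315 on chromosome 7, whose 48 reads in CFA replicate 3 stood against 5 to 7 in the other libraries.

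Toward lower values in CFA, novel_circ_0026922 on chromosome 3 had 32.0, 0 and 21.0 RPM after CFA and 73.2, 34.9 and 43.8 after saline. Novel_circ_0021460 on chromosome 1, from 624 nt of genome, had 19.8, 13.8 and 12.2 against 71.5, 25.5 and 27.8 RPM. Novel_circ_0016474 on chromosome 19 had 41.1, 38.4 and 28.8 against 57.5, 96.1 and 57.7 RPM. In these 3 circles every CFA library lay below every saline library, with log2 fold changes of -1.48 ± 0.59, -1.42 ± 0.64 and -1.02 ± 0.49 (SE). Novel_circ_0000115 on chromosome 10, at 71.6, 64.5 and 107 against 162, 171 and 82.3 RPM, overlapped between the groups. For these 4 and for the 5 circles after novel_circ_0002380 in the direction of higher values, counting the Dlgap3 circle described with the host genes, edgeR gave an adjusted p of 0.912.

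**Figure D5:**
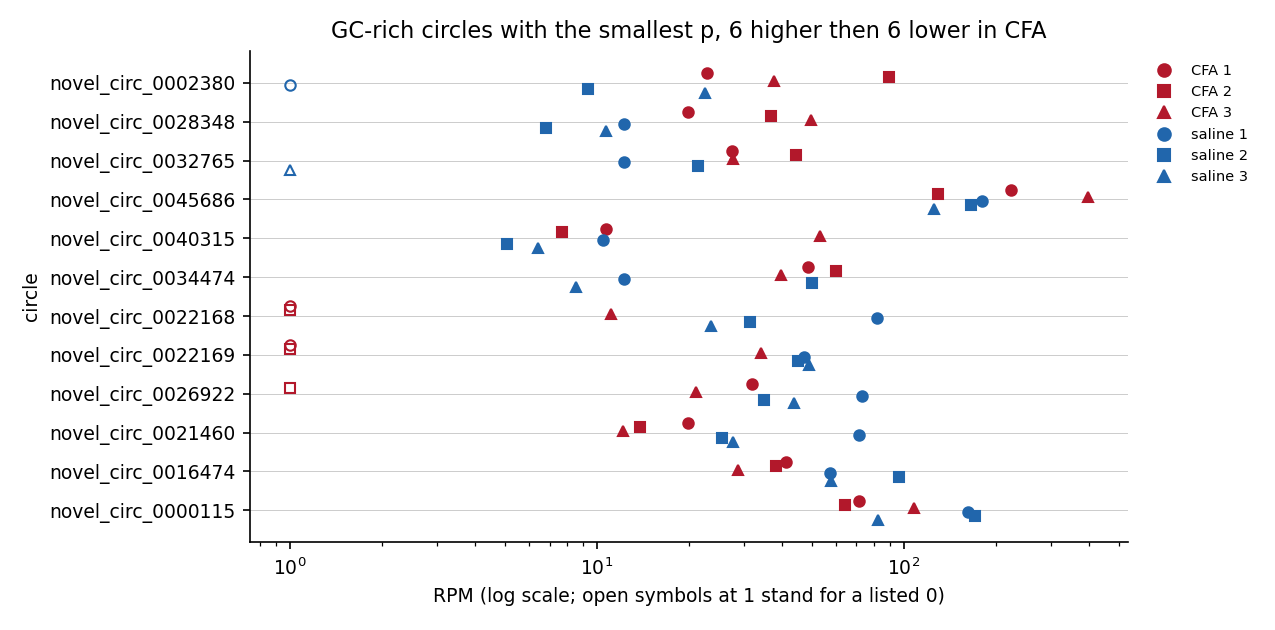
RPM (log scale) per library of the 12 GC-rich spliced circles with the smallest p among those read in at least 4 libraries, the upper 6 higher and the lower 6 lower in CFA. Open symbols at 1 stand for a listed 0. The pair novel_circ_0022168 and novel_circ_0022169 is at 0 in CFA replicates 1 and 2.

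Host genes could be named where a run of at least 40 nt of a circle matched, without mismatch, the window of 1 gene from 250 bases before to 50 bases after its RefSeq start (rat build GRCr8). This finds circles that hold the first exon or lie near it, and it paired 24 members (2.41%) with 22 genes, against 2.01% of the other spliced circles. All 24 lay on the chromosome of their gene and 21 on its strand, although positions differ between the builds. Of the 24, 7 had reads in all 6 libraries, 17 were tested and 0 passed after adjustment in edgeR. At an unadjusted p below 0.05 in edgeR there was 1 of these 17, novel_circ_0022169, beside 602 of all 22426 circles tested (2.68%). With 17 circles, 1 is too few to compare with that share. The median relative CpG frequency of the 24 was 0.573. With lists of ion channels, transmitter receptors, synaptic scaffolds, chromatin factors, inflammatory kinases and cytokine receptors, 1 calcium channel gene and 1 scaffold gene were hit and 0 of the other lists.

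The runs of 3 of these genes are printed, because they tie members to genes of known function in neurons. Lower case marks bases before the RefSeq start and capitals those from it on.
Ebf3, GRCr8 chr1:201544256-201544317, minus strand: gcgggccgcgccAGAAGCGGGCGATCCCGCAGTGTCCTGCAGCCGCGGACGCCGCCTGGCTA
Dlgap3, GRCr8 chr5:144800268-144800314, plus strand: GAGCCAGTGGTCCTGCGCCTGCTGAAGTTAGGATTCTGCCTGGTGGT
Cacna1a, GRCr8 chr19:40650419-40650469, minus strand: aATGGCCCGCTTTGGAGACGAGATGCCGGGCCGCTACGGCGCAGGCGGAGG

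Dlgap3 encodes a scaffold protein of the postsynaptic density. Its circle, novel_circ_0034474, is 156 nt long and had 48.7, 59.8 and 39.8 RPM after CFA and 12.2, 50.2 and 8.55 after saline. Saline replicate 2 lay among the CFA values, and the log2 fold change of 0.95 ± 0.56 (SE) was not called. Cacna1a encodes the pore of the P/Q-type calcium channel of presynaptic endings, and its circle novel_circ_0016170 had 0, 3 and 11 reads in CFA rats and 10, 0 and 10 in saline rats. The file gives that circle on the plus strand and RefSeq the gene on the minus strand. Ebf3 encodes a transcription factor of the early B-cell factor family, and its circle is the uneven novel_circ_0019286, with 62.8% G plus C and a relative CpG frequency of 1.07.

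Ptprf, which encodes a receptor-type tyrosine phosphatase of axons and synapses, matched novel_circ_0034148 and novel_circ_0034149. The first had 33, 28 and 78 reads in CFA rats and 31, 106 and 15 in saline rats, and the second 8, 13 and 32 against 6, 63 and 13. Their log2 fold changes were 0.14 ± 0.47 and -0.28 ± 0.67 (SE). The most abundant circle with a gene, novel_circ_0001342 of Wscd1, had 260, 115 and 293 reads against 126, 248 and 232, a log2 fold change of 0.38 ± 0.33. Pam encodes the enzyme that amidates many neuropeptides, and its circle novel_circ_0045445, with 65.5% G plus C, had 13, 10 and 8 reads against 6, 20 and 13. Groups overlapped in each of these 4 circles.

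The partner novel_circ_0022169 of the chromosome 20 locus matched Fam241b over its last 101 nt, which are the part that sets it apart from the called circle plus 1 base. In RefSeq these bases all lie before the start of that gene, so the match places the circle beside the gene and does not show it to be its host. Novel_circ_0040202, which matched Mpped1, had 170 reads in CFA replicate 1 and was listed at 0 in the other 5 libraries. Its fitted log2 fold change of 9.12 ± 5.93 rested on that library and was not called. A fit without robust estimation called it (edgeR adjusted p = 0.0232), and so did one with the replicate block (edgeR adjusted p = 1e-05). Those same fits also called novel_circ_0016532 on chromosome 19, as did the fit without saline replicate 1. It had no reads in the CFA rats and 0, 139 and 146 in the saline rats (edgeR adjusted p = 0.978 with all libraries), and it was chosen after its values were seen.

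In their letters the members carried runs of G and C and lacked runs of A and T, as the rule makes likely. Read on the circle's strand and across the junction, GGGG was in 76.6% of members and 52.9% of the other spliced circles, CCCC in 86.2% and 54.4%, and CCGG in 80.8% and 45.3%. AAAAAA was in 15 members (1.51%) against 14.7%, and TTTTTT in 4 (0.402%) against 6.82%. Runs of A are what poly-T beads hold, and the part of that step in the levels was not tested. The 15 members with AAAAAA had a median of 4.18 RPM and the rest 3.17 RPM; among the other spliced circles the medians were 5.76 and 4.09 RPM. A match is a description of the letters and no evidence of binding.

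The 29 nt on each side of the back-splice had a median of 58.6% G plus C in members and 46.6% in the other spliced circles, a little below the medians over whole circles in both sets. In 44.8% of members they were below 58%. The last base was G in 86.4% of members and 79.0% of the others, and the first was G in 50.3% and 44.4%. The last 2 bases were AG, the usual end of an exon, in 57.4% and 56.0%. A reading frame that starts with ATG and meets no stop around the ring was open in 264 members (26.5%) and 18.6% of the others. Such a frame is a property of the letters, and no translation was measured.

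Seeds of microRNAs, the bases 2 to 8 that pair with targets, matched GC-rich circles according to their own composition. Over the 585 distinct seeds of 724 mature rat microRNAs of RefSeq, 232 were matched in a larger share of members than of other spliced circles. Seeds with 5 G or C of 7 were matched by a median of 6.73% of members and 3.20% of the others, and seeds with 1 by 0.302% and 2.15%. The 3 seeds matched by the most members are shown with miR-138-5p, which is abundant in brain, and miR-7a-5p, known for its many sites in the circle Cdr1as. The seed is in capitals.
rno-miR-666-3p: gGCUGCAGcgugaucgccugcuc
rno-miR-3575: aCUGCUGGguaagacgag
rno-miR-214-3p: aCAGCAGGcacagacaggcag
rno-miR-138-5p: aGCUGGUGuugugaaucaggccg
rno-miR-7a-5p: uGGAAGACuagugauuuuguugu

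A site for miR-666-3p (CTGCAGC) was in 239 members (24.0%) and 9.23% of the others, one for miR-3575 (CCAGCAG) in 206 (20.7%) and 9.84%, and one for miR-214-3p (CCTGCTG) in 198 (19.9%) and 7.84%. For miR-138-5p (CACCAGC) the shares were 15.3% and 5.77%. For miR-7a-5p (GTCTTCC), with 4 G or C in its seed, they were 3.02% and 3.65%, and no member held more than 2 sites. For miR-485-5p the most sites in 1 member were 6, in novel_circ_0019498. That circle of 1655 nt had 5, 0 and 6 reads in CFA rats and 0, 0 and 3 in saline rats. The seed of miR-15b-5p had more, with 7 sites in novel_circ_0011353. These shares describe sequences of near-equal length and say nothing of whether a microRNA meets a circle.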

How the data were processed

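The authors deposited whole-number counts per circRNA for 6 libraries and a second set of values named TPM, which per the file headers and values are RPM, reads per 1000000 circRNA reads, without a length term; the latter were recomputed from the counts. The sequences of the circles were deposited beside them. The submitters' processing notes name DESeq2 1.20.0, featureCounts 1.5.0-p3, StringTie 1.3.3b and HISAT2 2.0.5 with no role. Neither the circRNA caller nor the build is named in these sources. CFA replicate 3 was grouped by its title, although its column in the file has a different letter from the columns of its group. For 44 identifiers with 2 entries the first was used, and this moved no circle across the GC threshold.

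CFA was set against saline with edgeR 4.0.16 in R 4.3.3. Settings were TMM, robust quasi-likelihood, at least 10 counts over 6 libraries, and Benjamini-Hochberg adjustment over all circles at a threshold of 0.05. A run on simulated counts changed well-read circles by a large fold, with the same dispersion for all circles. That run does not cover rarer circles or smaller changes. The SE of an edgeR log2 fold change was derived from the F statistic of the test. It is the absolute log2 fold change divided by the square root of F, and was not estimated separately. Exact permutation tests used scipy 1.17.1. DESeq2 1.42.0, other filters, scalings, a replicate block and each library left out were alternatives. Members, lists and rules were chosen with earlier results of these data known. Circles are named if they are the 10 most abundant members, called, among the 6 smallest p each way with reads in at least 4 libraries, at an extreme of GC, length or span, or among the 3 on each side of the threshold. Circles named for a host gene or for uneven values were added after these values were seen.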

Additional observations from a re-analysis of the deposited data

How the results depend on the processing

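The calls depended on the fit. Of all 22426 circles tested 28 were called. When 30 counts were required it was 0 of 13949 (edgeR, 237 with p below 0.05 unadjusted), and with filterByExpr 0 of 9228 (130). DESeq2 called 4 (379) and the replicate block 45. With 1 library left out 15 to 40 were called. Without CFA replicate 2 and saline replicate 3 it was 11 of 19631 (568 in edgeR). Of the 652 members tested 1 was called. When 30 counts were required it was 0 of 363 (edgeR, 6 with p below 0.05 unadjusted), and with filterByExpr 0 of 234 (4). DESeq2 called 0 (10), the fit that is not robust 2 and the replicate block 4. With 1 library left out 0 to 2 were called. Without both libraries it was 0 of 569 (20 in edgeR). The circles differed: neither of the 2 in the fit that is not robust, novel_circ_0016532 and novel_circ_0040202, was the main call. The block called these, novel_circ_0022168 and novel_circ_0022169. Without saline replicate 1 the 1 call was novel_circ_0016532. The labels do not say whether equal replicate numbers pair rats. Same-numbered libraries correlated at 0.02, 0.00 and -0.07 in their deviations from the group means. Differently numbered ones ran from -0.06 to 0.06. So few libraries cannot decide whether the rats were paired. What causes these shifts was not tested. The median log2 fold change of members, -0.03, ran from -0.19 to 0.18 with 1 library left out.

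The CFA minus saline difference in the share of reads, -0.00380 points, became 0.00964 at a GC content of at least 60% and 0.00683 without the leading member, and it ran from -0.139 to 0.0807 with 1 library left out. That in the share of circles seen, -0.00705 points, became 0.0389 at 55%, 0.0113 at 60%, 0.0241 with at least 5 reads and 0.0181 after thinning to the smallest library, and it ran from -0.100 to 0.0788. All are within the spread between libraries. The log2 ratio of members to other spliced circles, -0.78, lay between -0.81 and -0.73 with 1 library left out and at -0.69 without both libraries, where 5 and 4 libraries cannot give a p below 0.0625 and 0.125 in the exact permutation test. It was -0.60 with members from 55% GC and -0.55 per 1000 nt. The difference in the share seen, -5.50 points, lay between -6.07 and -4.63, was -3.99 without both libraries and was -3.21 at 300 to 500 nt.

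Log2 fold changes that turned sign were all of circles that were not called. With total counts alone novel_circ_0021442 was at -0.010 and novel_circ_0016935 at 0.0092. With the replicate block novel_circ_0021442 was at -0.023, novel_circ_0005119 at 0.011 and novel_circ_0000012 at 0.19. With 1 library left out, the range was -0.34 to 0.030 for novel_circ_0005381, -0.077 to 0.34 for novel_circ_0024312, -0.16 to 0.28 for novel_circ_0021059 and -0.46 to 0.85 for novel_circ_0021442. It was -0.034 to 0.23 for novel_circ_0024028, -0.54 to 0.51 for novel_circ_0005119, -0.27 to 0.27 for novel_circ_0016935, -0.31 to 0.44 for novel_circ_0031290 and -0.63 to 1.04 for novel_circ_0000012. The settings without both libraries, per 1000 nt and below 1000 RPM were chosen after seeing the data.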
